A study of Mus musculus with 11 samples.

Results

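The protein-coding genes of mouse chromosome 17 were described in tumor-derived mammary cell lines with and without Cpt1a, the enzyme that gates the entry of long-chain fatty acids into mitochondria for oxidation. The members were the 176 genes that the deposited table of genotype differences lists as protein-coding on chromosome 17, ordered by start position, out of 4461 listed genes. Names that begin with H2- (6 genes) and with Zfp (3 genes) were left out of the 185 coding genes listed on the chromosome. Because that table was built by the authors' comparison of deficient with control lines, every member was chosen by that contrast, and the values of the contrast are given here as a description with no test.

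RNA-Seq had been run on 6 cell lines made from mammary tumors of female FVB/N mice that carry NIC, an MMTV-driven construct expressing activated ErbB2 together with Cre recombinase in mammary epithelium. Lines KO_1922, KO_1925, KO_2768 and KO_4258 carry conditional Cpt1a alleles that Cre removes, and lines WT_5257 and WT_8905 carry wild-type Cpt1a. All 6 lines therefore share the ErbB2 and Cre construct. Tumors were taken 8 weeks after palpation. Each line is a separate tumor culture and had 2 libraries, with the exception of KO_2768, which had 1, so that 11 libraries stand for 4 deficient and 2 control lines. The genotype field of the labels set the groups, and sample titles, whose wording states the reverse alleles, were not followed. Cpt1a and Erbb2 are not among the listed genes, and the targeted gene was not analysed here.

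Library totals ran from 18247312 to 25386785 reads in the deficient lines and from 15199378 to 17372643 in the controls, so every deficient library was the deeper. Of the marker lists, 4 of 20 epithelial genes were listed (Elf3, Erbb3, Elf5 and Muc1), with a summed level of 173 to 254 CPM (read counts relative to the scaled library total) in the deficient lines and 500.0 to 584 CPM in the controls. Of 20 fibroblast and mesenchymal genes 12 were listed, with a summed level of 811 to 6190 CPM against 69.0 to 83.5 CPM. Single genes did not all follow the sums. Of the listed epithelial genes 3 lay below the controls and 1 above, and of the mesenchymal genes 10 lay above and 2 below. Of 17 leukocyte genes only Csf1r was listed, at 312 CPM in KO_4258, 17.2 CPM in KO_1925, 4.03 CPM in KO_1922 and 0.0316 to 0.437 CPM in the other 3 lines. None of 10 endothelial genes and 1 of 7 adipocyte genes were listed. Only markers listed for a genotype difference enter these sums, so that the sums differ between genotypes follows from the listing. Markers that were not listed were not measured here, and no change in cell type is read from the sums. The sums and Csf1r also differed between single lines, and their part in the values below was not tested. In bulk libraries a change in the number of cells of a type cannot be told apart from a change in RNA per cell.

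Chromosome 17 of the mouse carries the major histocompatibility complex with its antigen-processing genes, complement component C3, the Tnf and Lta cytokine cluster and many genes that every cell uses, among them ribosomal proteins, tubulin and the cytosolic chaperone Hsp90ab1. Neighbours on a chromosome may share a promoter, a regulatory domain or the number of copies of the segment, so that position is a property of genes apart from their function. Gene levels were measured as CPM and are given for the lines KO_1922, KO_1925, KO_2768 and KO_4258, in that order, and then for WT_5257 and WT_8905. A fold change is the log2 ratio of the 4 deficient lines over the 2 control lines, fitted over lines and given with its standard error (SE).

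The promoters of 3 divergent pairs of members and of a Notch ligand and receptor are shown because the values of these genes are described below, and no relation between the letters of a window and a level was tested. RefSeq start sites gave windows from 250 bases before to 50 bases after the start for 137 of the 176 members (build GRCm38.p6). The capitals mark the CCAAT box, the GC box that Sp and Klf factors bind (GGGCGG), and the TATA box (TATAAA), each on either strand. In the first window of each gene the CCAAT box was present in 55 of 133 measured members (41.4%) and in 38.7% of 16522 coding genes. The GC box was present in 90 of the 133 (67.7%) and in 48.0% of coding genes. The TATA box was present in 12 (9.02%) and in 12.9%. Of longer motifs, the ETS core (CCGGAAG) was present in 22 windows (16.5%, against 12.3% of coding genes). The AP-1 site (TGACTCA) was present in 4 windows (3.01%, against 4.58%). The sterol element, searched as TCACCCCAC, was present in 1 window (0.752%, against 0.527%). These sets are unlike: the 133 members were listed and had enough reads, and the 16522 coding genes were taken whatever their level. A share over measured genes of other chromosomes was not computed, so no trait of the chromosome is read from these shares. Windows of genes that face away from each other overlap, in part only for Ndufa7 and Rps28, so 1 window per pair is printed.
Tap1 (chr17:34187306-34187605, plus strand), shared with Psmb9: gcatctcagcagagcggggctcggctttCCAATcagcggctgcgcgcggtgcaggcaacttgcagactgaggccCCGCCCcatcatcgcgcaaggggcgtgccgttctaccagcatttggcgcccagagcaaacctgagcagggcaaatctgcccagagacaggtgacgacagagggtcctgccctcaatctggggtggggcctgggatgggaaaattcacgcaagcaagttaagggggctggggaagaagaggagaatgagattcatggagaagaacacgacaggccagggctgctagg
Cchcr1 (chr17:35516799-35517098, plus strand), shared with Tcf19: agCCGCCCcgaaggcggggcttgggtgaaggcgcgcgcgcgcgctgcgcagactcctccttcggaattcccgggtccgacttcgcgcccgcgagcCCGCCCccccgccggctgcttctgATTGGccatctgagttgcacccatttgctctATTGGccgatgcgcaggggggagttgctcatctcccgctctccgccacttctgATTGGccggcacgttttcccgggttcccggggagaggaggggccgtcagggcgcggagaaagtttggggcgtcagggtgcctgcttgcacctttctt
Ndufa7 (chr17:33824322-33824621, plus strand), shared with Rps28: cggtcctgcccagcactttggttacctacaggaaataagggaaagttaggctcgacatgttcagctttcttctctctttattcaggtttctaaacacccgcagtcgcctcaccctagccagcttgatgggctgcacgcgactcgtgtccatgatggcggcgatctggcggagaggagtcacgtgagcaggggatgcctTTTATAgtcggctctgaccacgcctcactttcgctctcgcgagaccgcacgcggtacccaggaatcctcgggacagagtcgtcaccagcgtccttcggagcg
Dll1 (chr17:15375774-15376073, minus strand): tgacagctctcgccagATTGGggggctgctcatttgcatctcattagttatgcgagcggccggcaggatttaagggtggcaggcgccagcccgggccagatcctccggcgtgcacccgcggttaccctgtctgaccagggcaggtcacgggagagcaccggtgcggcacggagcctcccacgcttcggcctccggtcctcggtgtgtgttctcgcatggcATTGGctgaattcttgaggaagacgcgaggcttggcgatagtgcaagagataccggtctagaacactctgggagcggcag
Notch3 (chr17:32166841-32167140, minus strand): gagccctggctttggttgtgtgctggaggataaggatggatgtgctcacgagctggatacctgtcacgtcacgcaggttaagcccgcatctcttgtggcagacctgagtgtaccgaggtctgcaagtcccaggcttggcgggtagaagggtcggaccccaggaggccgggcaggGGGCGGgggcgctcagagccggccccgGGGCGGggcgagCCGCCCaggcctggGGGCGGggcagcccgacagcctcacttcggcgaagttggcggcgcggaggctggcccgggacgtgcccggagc

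Most members were higher in the deficient lines. Of the 170 members with enough reads in the lines for a fold change, 150 (88.2%) lay above the controls and 20 below, with a median fold change of 0.73. On the other chromosomes 57.2% of 3670 listed coding genes lay above, with a median of 0.44, and over all 4268 listed genes measured the median was 0.49. In 78 members (45.9%) all 4 deficient lines exceeded both control lines, against 35.1% of listed genes. In 18 members (10.6%) all 4 lay under both controls, against 38.2% of listed genes. The count above both controls was 139 of 172 measured members with WT_8905 left out (46.9% of listed genes, median over members 1.28). It was 62 of 176 with WT_5257 left out (34.3% of listed genes, median 0.40), which is near the share of listed genes. With every library a sample it was 43 of 159 (23.9% of listed genes). The rule used this contrast, so these shares describe which genes of the chromosome were listed. Scaling moved the split both ways. With DESeq2 size factors 65 members were separated upward (28.4% of listed genes) and 19 downward (39.2%). The median was then 0.63 over members and 0.37 over all listed genes. With the authors' own size factors 104 members were separated upward (40.6% of listed genes) and 16 downward (34.7%), and the median over all listed genes was 0.59.

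The 20 members below the controls were changed by more than those above. The median fold change was 0.91 among the 150 members above and -2.52 among the 20 below. On the other chromosomes the order was the reverse, with medians of 1.45 above and -0.95 below. Members of low level differed most. At a mean under 10 CPM 47 of 55 members (85.5%) lay above and the median was 2.40. From 10 to 100 CPM 70 of 78 (89.7%) lay above with a median of 0.61. At 100 CPM and over 33 of 37 (89.2%) lay above with a median of 0.70. On the other chromosomes the shares above at these levels were 69.5%, 51.5% and 53.6%. Every member was listed for this contrast, so the medians by level describe listed genes only.

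**Figure D1:**
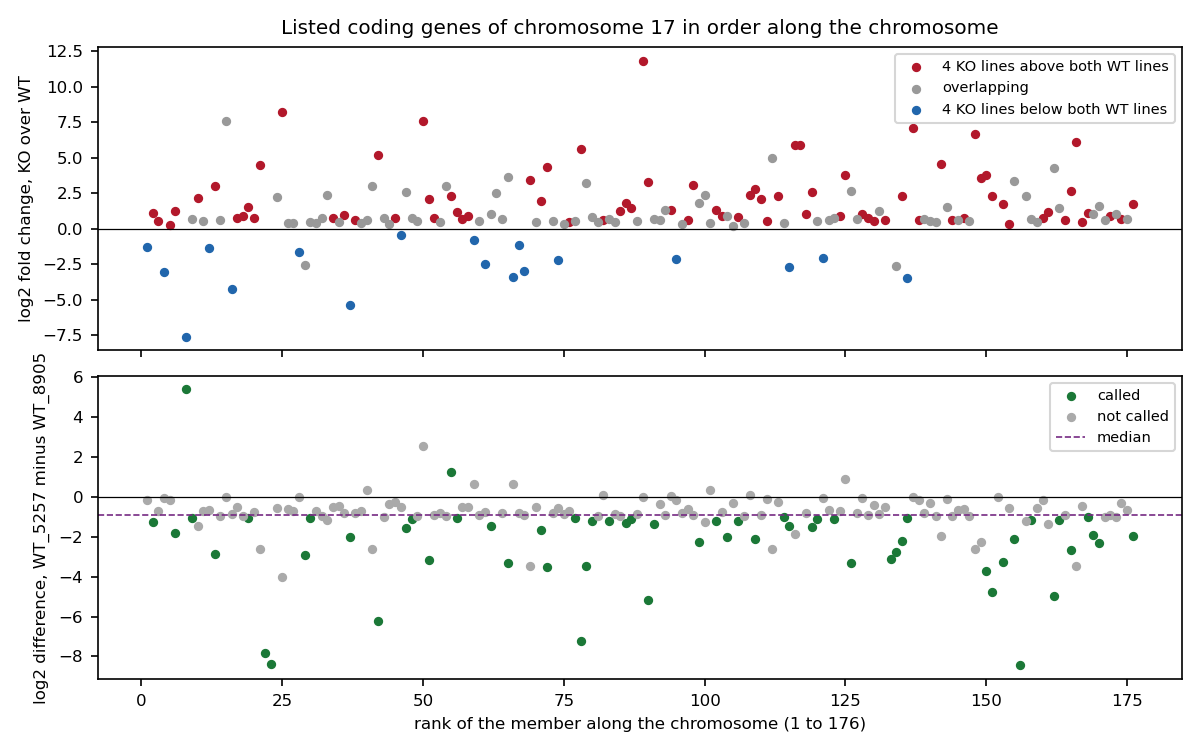
Members in order along chromosome 17 (horizontal axis, rank 1 to 176). The upper panel plots the log2 fold change of the 4 deficient over the 2 control lines for 170 members, with red and blue points where the lines of the genotypes do not overlap; the lower panel plots the log2 difference of WT_5257 minus WT_8905, with called genes in green and the median of -0.92 dashed. Most points lie above 0 in the upper panel and below 0 in the lower panel.

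The 12 higher members of largest fold change among those separated between genotypes all read under 1 CPM in both controls except Msln. Tnxb, a matrix glycoprotein gene, stood at 0.146, 0.731, 43.2 and 6.69 CPM in the deficient lines and had no read in any control library, at least 62.3-fold higher with the floor set at 3 counts per library. Line KO_2768 alone set most of that mean. Prss27, a serine protease gene, was at 22.0, 30.5, 0.349 and 7.08 CPM and at 0 and 0.0937 CPM in the controls, which together held 3 reads (357-fold, counting interval 122 to 1730).

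Msln, the gene of mesothelin, a surface glycoprotein of mesothelial and carcinoma cells, read 492, 580.0, 149.9 and 494 CPM in the deficient lines and 0.316 and 23.3 CPM in the controls (fold change 5.18 ± 1.74). Angptl4, a secreted inhibitor of lipoprotein lipase and a fatty acid-responsive gene, read 15.9, 14.4, 57.8 and 2.18 CPM against 0 and 0.937 CPM (5.58 ± 2.17). All 4 deficient lines lay above both controls in each of these genes, by a wide margin for Msln and by little for Angptl4 in KO_4258.

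Rasgrp3, an exchange factor that loads Ras proteins with GTP, was at 4.20, 4.10, 1.16 and 0.115 CPM against 0 and 0.0624 CPM. Gpr116, an adhesion G protein-coupled receptor, was at 3.89, 2.77, 12.7 and 0.161 CPM against 0.0316 and 0.125 CPM (5.90 ± 2.01). In both genes KO_4258 lay nearest to the controls. Sema6b, a transmembrane semaphorin, stood at 1.09, 0.496, 13.0 and 0.667 CPM against 0.0631 and 0.25 CPM, and KO_2768 was far above the other lines.

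Ip6k3, an inositol hexakisphosphate kinase, and Tubb4a, a beta-tubulin, were led by KO_4258. Ip6k3 read 0.85, 0.861, 0.271 and 12.6 CPM and 0.0316 and 0 CPM in the controls, and Tubb4a read 0.194, 0.183, 0.62 and 6.60 CPM and 0 and 0.0312 CPM. The controls held 1 read of each gene. Efhb, Ankrd66 and Prss32 stayed under 1 CPM in every line, with no read in the controls for Efhb and Ankrd66 and 1 for Prss32. Ankrd66 had 1 read in KO_2768 (0.0388 CPM). Tnxb, Rasgrp3, Gpr116 and Tubb4a also lay under 0.204 CPM, the highest floor of 3 counts per library, in at least 1 deficient line. The separation of these genes from the controls rests in such lines on few reads. Efhb was at least 2.34-fold higher.

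The lowered members hold a Notch ligand and a Notch receptor. Dll1, a Delta-like ligand, read 22.4, 15.5, 25.7 and 10.4 CPM in the deficient lines and 251 and 438 CPM in the controls (fold change -4.22 ± 0.42). Notch3, a receptor for such ligands, read 30.2, 30.7, 38.6 and 44.3 CPM against 135 and 193 CPM (-2.19 ± 0.24). The lines of the genotypes did not overlap in either gene, and KO_4258 was the lowest line for Dll1 and the highest deficient line for Notch3. The window of Dll1 printed above holds 2 CCAAT and no GGGCGG, and that of Notch3 holds 4 GGGCGG and no CCAAT.

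Both cyclic nucleotide phosphodiesterase genes among the members, Pde10a and Pde9a, lay below the controls. Pde10a, which hydrolyses cyclic AMP and cyclic GMP, read 0.0971, 0.0261, 0.0388 and 0 CPM in the deficient lines and 16.6 and 0.375 CPM in the controls, and WT_5257 alone set its control mean. Pde9a, a cyclic GMP-specific enzyme, read 3.52, 1.30, 9.42 and 0 CPM against 20.5 and 36.4 CPM, with no read in KO_4258.

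Satb1, a chromatin organizer, read 3.47, 2.87, 4.61 and 0 CPM against 20.2 and 40.6 CPM. Sytl3, a Rab27-binding protein of secretory granules, read 2.40, 3.05, 2.67 and 3.01 CPM against 23.6 and 23.6 CPM (-3.08 ± 0.30), with little spread within either genotype. Tnfrsf21, a death-domain receptor of the TNF receptor family, read 25.1, 21.6, 26.9 and 5.54 CPM against 70.5 and 187 CPM. Slc29a1, the equilibrative nucleoside transporter, read 70.6, 78.1, 145 and 41.8 CPM against 355 and 349 CPM (-2.07 ± 0.46). The other 4 of the 12 furthest lowered members were Hs3st6 (-5.40 ± 1.54), Rsph1 (-3.37 ± 1.08), Slc26a8 (-2.49 ± 0.80) and Ly6g6e (-2.15 ± 0.63), all at a low level.

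Among lowered metabolic genes, Acat2, the cytosolic acetyl-CoA acetyltransferase that begins the route from acetyl-CoA to sterols, read 54.3, 78.1, 57.9 and 29.0 CPM against 110.1 and 165 CPM (-1.33 ± 0.39). Pgp, a phosphoglycolate phosphatase, read 74.4, 65.9, 76.4 and 64.3 CPM against 222 and 216 CPM (-1.64 ± 0.15). Slc37a1, a sugar phosphate transporter, read 15.5, 15.7, 9.57 and 20.7 CPM against 25.5 and 42.5 CPM. Fkbp5, a glucocorticoid-responsive co-chaperone, read 269, 174, 358 and 285 CPM against 595 and 361 CPM, where KO_2768 lay just under WT_8905.

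**Figure D2:**
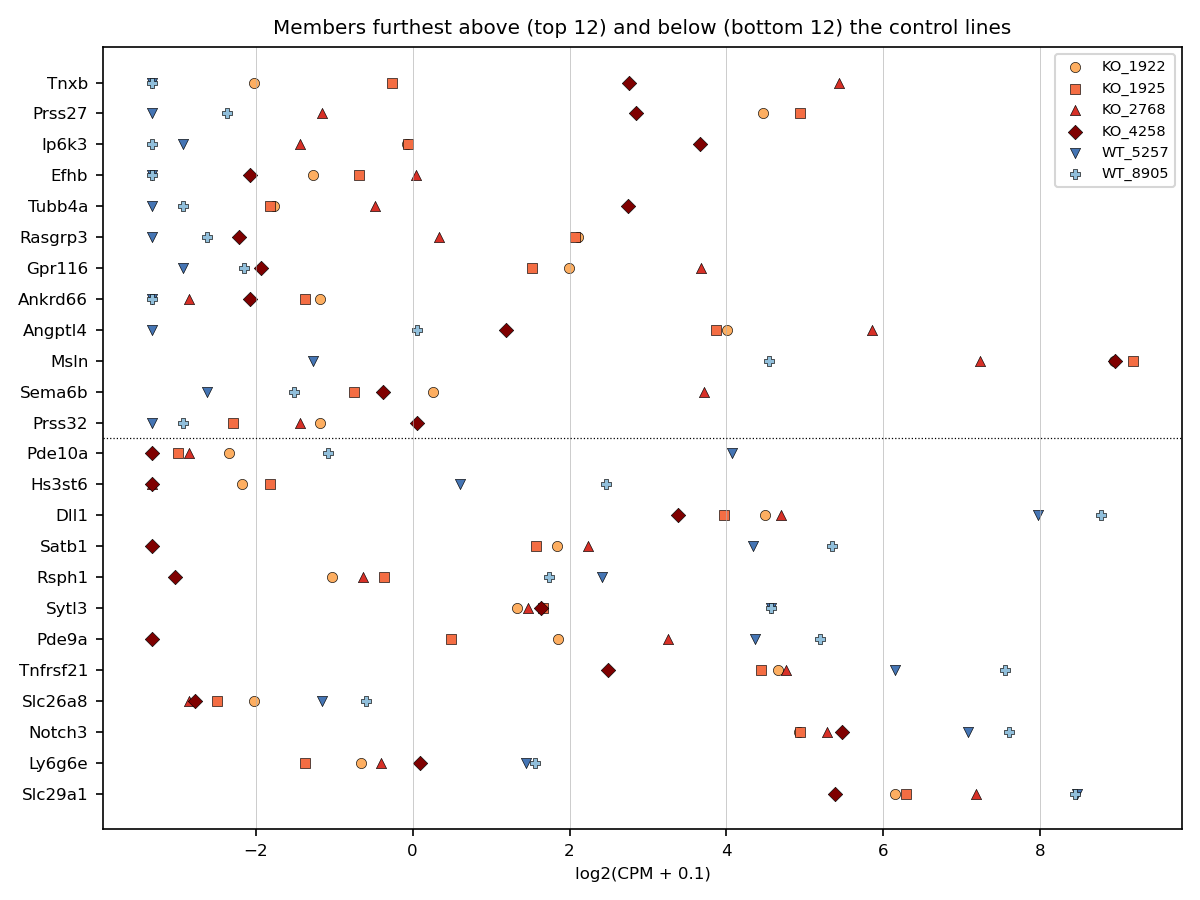
Levels in each of the 6 lines (horizontal axis, log2 of CPM plus 0.1) of the 12 members furthest above (top) and the 12 furthest below (bottom) the controls among those whose lines did not overlap. The deficient lines lie to the right of both controls in the top rows and to the left in the bottom rows, and Tnxb has no read in either control.

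Of the 8 members with the highest levels per gene length, 7 encode ribosomal proteins, a tubulin and an Hsp90 chaperone, which every cell uses, and the other was C3. Ribosomal protein, tubulin and Hsp90 genes have processed copies elsewhere in the genome with which reads may be shared. By mean FPKM over lines, which divides reads by gene length and library total, they were Hsp90ab1, Rpl36, Rps10, Tubb5, Rps18, Rps2, Rpl10a and C3, from 1010 down to 278 FPKM. Hsp90ab1, a cytosolic Hsp90 chaperone, was at 1179, 1084, 977 and 1321 FPKM in the deficient lines and 494 and 1034 in the controls. Tubb5, a beta-tubulin, was at 550.0, 558, 416 and 500.0 FPKM in the deficient lines and 194 and 317 in the controls. Rps18, a small ribosomal subunit protein, was at 375, 324, 373 and 949 FPKM in the deficient lines and 146 and 272 in the controls. In all 8 genes WT_5257 was the lowest of the 6 lines, and WT_8905 lay within the range of the deficient lines for Hsp90ab1 only. The fold change of Hsp90ab1 was 0.52 ± 0.37, and it was -0.02 with WT_5257 left out.

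The control lines themselves differed along the chromosome, and this contrast within a genotype was tested. Of 173 members, 56 were called lower in WT_5257 than in WT_8905 (32.4%) and 2 were called higher, against 17.1% and 5.48% of listed genes. A call needed an adjusted p under 0.05 in edgeR's quasi-likelihood test and a log2 difference of at least 1. The p-values measure the spread between 2 libraries of a line, which may be technical. The contrast is not fully independent of the listing, because a low WT_5257 lowers the control mean and favours a listing as higher in the deficient lines.

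Across the 168 members measured in both fits, 154 (91.7%) were below 0 in WT_5257 minus WT_8905, with a median of -0.92, which is 0.529 of the level of WT_8905, and an interquartile range of -1.38 to -0.53. On the other chromosomes 55.5% of 3663 genes were below 0, with a median of -0.07 and an interquartile range of -0.81 to 0.30. A difference from -0.5 to -1.5 was found in 94 members (56.0%) and in 15.6% of the genes elsewhere. The difference was present at every level: the median was -1.32 under 10 CPM, -0.82 from 10 to 100 CPM and -0.93 at 100 CPM and over, against -0.40, -0.04 and -0.04 for genes of those levels elsewhere.

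Of the 20 chromosomes with at least 50 measured genes, chromosome 17 had the lowest median difference between the control lines, followed by chromosome 14 (-0.68) and chromosome 5 (-0.61), and chromosome 12 had the highest (0.63). Chromosome 17 also had the largest share of listed genes above the controls (88.2%), followed by chromosome 4 (85.7%), and chromosome 12 had the lowest (14.9%). Chromosome 4, close to 17 in that share, had a median of -0.00189 between the control lines. Of the coding genes that GENCODE places on chromosome 17, 18.0% were members, and the share listed ran from 10.5% on chromosome 14 to 35.4% on chromosome 12.

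**Figure D3:**
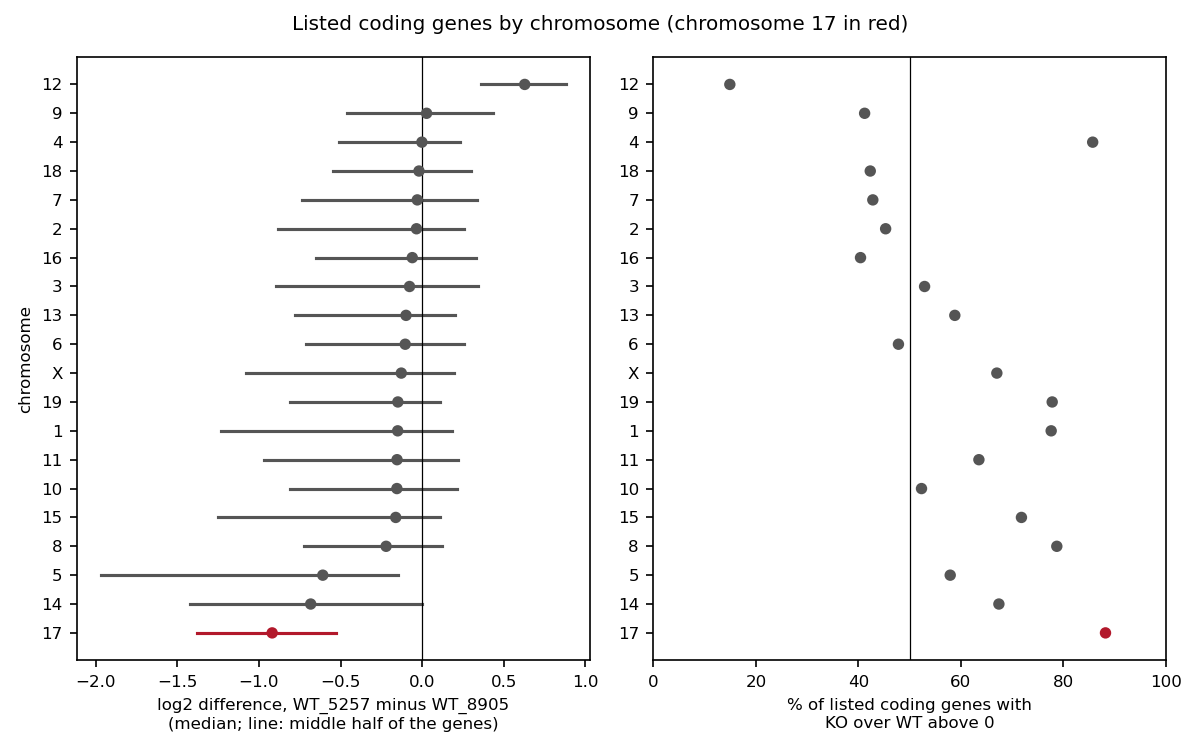
Listed coding genes by chromosome, ordered by the control-line difference. The left panel gives the median (point) and interquartile range (line) of the log2 difference WT_5257 minus WT_8905, and the right panel gives the percentage of genes with a fold change above 0; chromosome 17, in red, has a median of -0.92 and 88.2% above.

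The deficient lines stood closer to WT_8905 than to WT_5257. By the log2 ratio of CPM plus 0.1, the mean of the deficient lines exceeded WT_8905 by a median of 0.47 over the members and WT_5257 by 1.19, and on the other chromosomes these medians were 0.34 and 0.41. Line by line, the median over members against WT_8905 was 0.47 in KO_1922, 0.37 in KO_1925, 0.28 in KO_2768 and 0.47 in KO_4258, and elsewhere it was 0.25, 0.26, 0.05 and -0.04. WT_5257 against WT_8905 gave -0.79 on the chromosome and -0.02 elsewhere on this scale. Of the 150 members above the controls, all 4 deficient lines exceeded WT_5257 in 139 and exceeded WT_8905 in 80, and WT_8905 was the higher control in 137. In 63 of the 150 exactly 3 deficient lines exceeded both controls, and the line left behind was KO_2768 in 28, KO_4258 in 18, KO_1925 in 14 and KO_1922 in 3.

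In each of the 9 windows of 10 Mb the median fold change of members was above 0, from 0.28 over the first window (7 members, 4 above and 3 below) to 2.01 in the window that starts at 60 Mb (4 members). The control-line median was below 0 in each, from -0.13 in the first window to -1.66 in the window that starts at 60 Mb. The gene-dense windows that start at 20 and 30 Mb had 45 members each, of which 39 and 40 lay above. The longest stretch of 38 members above the controls ran from Efhb to Ston1, the last member. No measured member beyond Satb1 lay below. On chromosome 12 the longest stretch held 55 genes, all below, and on chromosome 4 it held 31, all above.

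Of the members called between the control lines the furthest were Angptl4, Msln, Pde10a, Cyp21a1 and Clip4 among those measured in lines. Msln was called lower in WT_5257 (log2 difference -6.23 ± 0.20, adjusted p = 1.63e-31). Pde10a was called higher in WT_5257 (5.40 ± 0.32, adjusted p = 2.19e-20). Angptl4 had no read in WT_5257 and 30 in WT_8905, at least 4.60-fold lower. Cyp21a1, a steroid hydroxylase gene, and Clip4 were also without reads in WT_5257. Cyp21a1 had 7 reads in WT_8905 (0.219 CPM, against a floor of 0.204 CPM), at least 1.07-fold lower in WT_5257. No bound is given for Clip4. The fitted differences that rank genes without reads in a line depend on the prior count. Tnxb and Cyp21a1 overlap annotated pseudogene copies, so their reads are uncertain. Def6, a guanine nucleotide exchange factor of lymphocytes, was the other member called higher in WT_5257 (1.26 ± 0.26, adjusted p = 3.62e-05).

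C3, the central complement component, was called lower in WT_5257 (-4.78 ± 0.06, adjusted p = 1.2e-47), at 29.0 and 768 CPM in WT_5257 and WT_8905, and read 1136, 864, 4314 and 1379 CPM in the deficient lines. Hmga1, an architectural chromatin protein, read 7.77 and 66.9 CPM in the controls (-3.16 ± 0.09, adjusted p = 2.91e-33) and 121, 112, 124 and 263 CPM in the deficient lines. Rab31, a GTPase of endosomal transport, read 10.7 and 98.2 CPM (-3.25 ± 0.09, adjusted p = 1.3e-34), and Ltbp1, which binds latent TGF-beta, read 7.13 and 43.3 CPM (-2.66 ± 0.09, adjusted p = 1.09e-29). In each of these 4 genes all deficient lines exceeded WT_8905, which itself exceeded WT_5257 by the differences given. Hsp90ab1 read 1278 and 2687 CPM (-1.12 ± 0.05, adjusted p = 3.28e-25), and its deficient lines, at 2833, 2668, 2423 and 3419 CPM, spanned WT_8905.

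The functional lists were written with earlier results of these data known, and 102 of the 170 measured members fell in at least 1 of them. All 11 lists had a median above 0, beside 0.73 for the members as a whole. The counts of each list stand beside 88.2% of members above the controls. They also stand beside 45.9% of members, or 35.1% of listed genes, separated upward. Separated downward were 10.6% of members, or 38.2% of listed genes. Nothing particular to a list is read from its count. The ribosome, RNA processing and translation list had 13 of 13 above the controls (median 0.70), 5 of them separated. Rps2 read 449, 579, 416 and 554 CPM against 191 and 325 CPM, and Rpl10a read 482, 498, 534 and 666 CPM against 286 and 394 CPM. Cell cycle, chromosome and DNA repair genes were above in 13 of 13 (median 0.62), 8 separated. They hold Ndc80, a kinetochore protein (0.74 ± 0.27), Ccnd3, cyclin D3 (0.60 ± 0.21), and the mismatch repair gene Msh6 (0.70 ± 0.31). In 5 of 5 mitochondrial genes the fold change was above 0 (median 0.58), with Cox7a2l at 0.91 ± 0.42 and the protease Lonp1 at 0.58 ± 0.33. None of the genes of this list was called between the control lines. In WT_5257, 4 of the ribosomal list and 2 of the cell cycle list were called lower. Of all members 32.4% were called lower there, against 17.1% of listed genes.

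Adhesion, matrix and surface protease genes had the highest list median, 2.81 (2.42 with Tnxb and Thbs2, which had no control read, at their lower bounds), with 14 of 14 above and 7 separated. Beside Tnxb, Msln and Prss27 they hold Ltbp1, at 127, 121, 165 and 217 CPM against 7.13 and 43.3 CPM, Crim1, a transmembrane binder of bone morphogenetic proteins (1.08 ± 0.50), and Ezr, which links actin to the membrane (0.28 ± 0.18). The list and the fibroblast and mesenchymal marker sum given above were both higher in the deficient lines than in the controls, and both hold only genes listed for this contrast. Line by line they were not alike. The marker sum was highest in KO_2768 (6190 CPM) and lowest in KO_4258 (811 CPM). Tnxb was also highest in KO_2768, whereas Msln and Prss27 were lowest there and Ltbp1 was highest in KO_4258. The part of the marker sum in these values was not tested. Growth factor, Notch, Wnt and receptor genes were above in 7 of 9 (median 1.08), with Dll1 and Notch3 the 2 below. Dlk2, an EGF-like repeat protein, read 1.63, 4.23, 0.853 and 1.06 CPM against 0.189 and 0.0937 CPM, and Daam2, a formin of Wnt signalling, read 4.27, 6.03, 2.71 and 2.18 CPM against 0.284 and 1.28 CPM.

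Complement and antigen-processing genes were above in 3 of 3 (median 1.77), all separated. Psmb9, an interferon-inducible proteasome subunit, read 13.5, 4.62, 17.7 and 5.31 CPM against 1.77 and 4.25 CPM, and Tap1, a peptide transporter that loads MHC class I, read 47.1, 21.7, 44.2 and 22.8 CPM against 8.24 and 17.1 CPM. TNF family, cytokine and innate immune genes were above in 5 of 7 (median 2.28), 3 separated upward and 1 downward. Tnfsf9, the ligand of 4-1BB, was at 5.54, 6.50, 5.46 and 8.14 CPM against 0.0631 and 0.874 CPM, and Tnf was at 2.99, 1.83, 11.6 and 9.04 CPM against 0.631 and 2.97 CPM. Unc5cl, the other member below, read 3.50, 2.30, 11.6 and 1.15 CPM against 7.80 and 50.1 CPM.

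Kinase, phosphatase and GTPase genes were above in 15 of 17 (median 1.02), 6 separated upward and 2 downward. Sik1, a salt-inducible kinase, read 56.8, 63.2, 104 and 95.8 CPM against 10.6 and 31.6 CPM. Lipid and small-molecule genes were above in 11 of 15 (median 1.03), 6 separated upward and 4 downward. Ppard, a nuclear receptor for fatty acids, read 51.1, 54.1, 71.7 and 70.0 CPM against 18.5 and 37.2 CPM (1.15 ± 0.35). Cyp1b1, a xenobiotic and steroid hydroxylase, read 281, 262, 292 and 94.2 CPM against 26.9 and 129 CPM, and Abcg1, a cholesterol exporter, read 8.50, 6.76, 28.3 and 0.023 CPM against 0.158 and 1.56 CPM. Transcription factor genes were above in 8 of 9 (median 0.87), 5 separated upward and Satb1 downward, and chaperone and stress genes were above in 5 of 6 (median 0.59), with Fkbp5 below. Runx2, a runt-domain factor of bone and mammary epithelium, read 23.9, 28.6, 22.5 and 46.1 CPM against 2.71 and 7.49 CPM (2.57 ± 0.58).

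**Figure D4:**
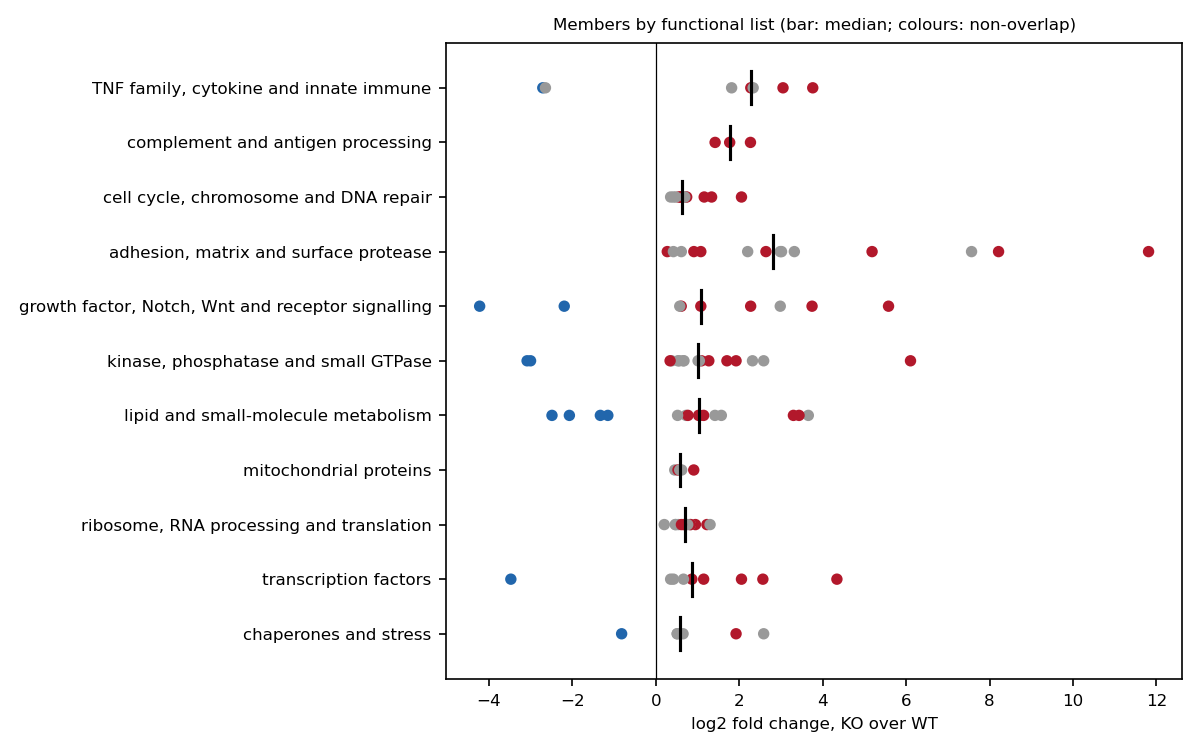
Log2 fold change of the deficient over the control lines (horizontal axis) for members in 11 functional lists, 1 point per gene and a bar at the list median. Red and blue points are genes whose lines do not overlap between genotypes; the medians run from 0.58 for mitochondrial proteins to 2.81 for adhesion and matrix genes.

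Differences among the deficient lines were fewer between KO_1925 and KO_1922 than for the other lines. Of 173 members 3 were called higher in KO_1925 and 7 lower, against 4.07% and 7.36% of listed genes. Psmb9 and Tap1, which lie head to head, were both called lower in KO_1925 (-1.57 ± 0.16, adjusted p = 5.31e-12 and -1.14 ± 0.09, adjusted p = 4.4e-16). Cul9, a cullin, was called lower (-1.71 ± 0.19, adjusted p = 5.79e-11), as was the palmitoyltransferase gene Zdhhc14 (-1.78 ± 0.57, adjusted p = 0.00842), and the other calls held Tnxb and Dlk2 among the higher and Pde9a, Cyp21a1 and Sema6b among the lower.

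Line KO_2768 differed from the mean of KO_1922 and KO_1925 in 19 members called higher and 14 called lower, against 13.4% and 11.1% of listed genes, and rests on 1 library, whose spread was taken to be that of the duplicate libraries of the other lines, so its SE and p-values do not measure spread within KO_2768. Tnxb was the furthest (7.01 ± 0.19, adjusted p = 3.73e-33). Sema6b (4.12 ± 0.25, adjusted p = 7.67e-20), C3 (2.12 ± 0.05, adjusted p = 5.72e-38), the stress-induced phosphatase Dusp1 (2.48 ± 0.11, adjusted p = 5.85e-26) and Xdh, xanthine dehydrogenase (2.04 ± 0.05, adjusted p = 2.32e-36), were called higher. Among the lower calls were the serine protease genes Prss27 (-6.20 ± 0.27, adjusted p = 1.36e-25) and Prss22 (-3.44 ± 0.12, adjusted p = 1.85e-29) and the neighbours Msln (-1.84 ± 0.06, adjusted p = 2.26e-30) and Mslnl (3 reads, 12.8-fold lower, counting interval 4.26 to 62.8).

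Line KO_4258 differed in 21 members called higher and 29 called lower, against 10.1% and 19.5% of listed genes. Its duplicate libraries differed more than those of any other line (chi-square per degree of freedom 9.27). The fit shared the estimate of the spread over all lines, so the SE and p-values may be too small for KO_4258. Several genes of the other deficient lines had 0 or 1 read in its 2 libraries. Satb1 and Pde9a had no read, at least 21.0-fold and 16.0-fold lower, Thbs2, thrombospondin 2, none either (at least 5.27-fold lower), and Ptprm, a receptor tyrosine phosphatase of cell contacts, 1 read (601-fold lower, counting interval 108 to 23800). Abcg1 and Scube3, a secreted EGF-domain protein, had 1 read each (333-fold and 309-fold lower, counting intervals 59.6 to 13200 and 55.2 to 12200). The higher calls hold Rps18 (1.54 ± 0.04, adjusted p = 4.53e-35), the valyl-tRNA synthetase gene Vars (1.82 ± 0.04, adjusted p = 6.17e-39) and Tubb4a (5.07 ± 0.35, adjusted p = 3.17e-18).

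The median difference over members was -0.06 for KO_1925 minus KO_1922, -0.02 for KO_2768 and 0.04 for KO_4258 against the mean of those lines, and -0.92 between the control lines. On the other chromosomes these medians were 0.00354, -0.00888, -0.07 and -0.07. A median near 0 holds members that went both ways, as the calls above show. The contrasts of KO_2768 and KO_4258 share the libraries of KO_1922 and KO_1925.

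**Figure D5:**
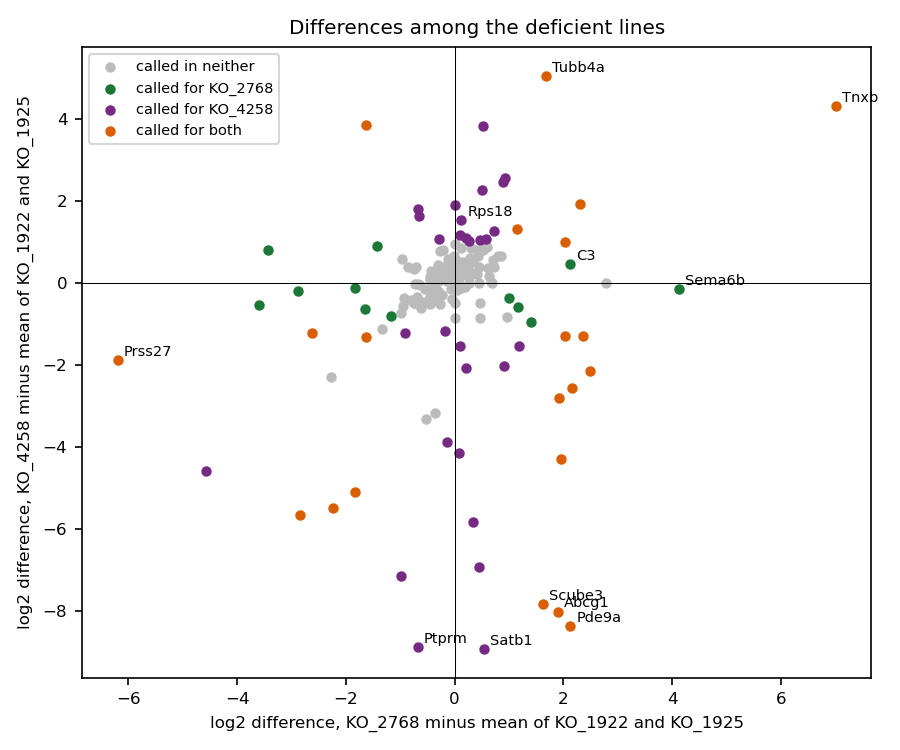
Log2 difference of KO_2768 (horizontal axis) and of KO_4258 (vertical axis) from the mean of KO_1922 and KO_1925 for members measured by library, coloured by call. Most points lie near 0 on both axes, Tnxb is high on both, and Satb1, Ptprm, Pde9a, Abcg1 and Scube3 are far down for KO_4258, where fitted values of genes with 0 or 1 read depend on the prior count.

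Neighbouring pairs were read from the divergent starts in the table. Psmb9 and Tap1 moved alike in the 6 lines as given above, and their shared window printed above holds 1 CCAAT and 1 GGGCGG. Tcf19 and Cchcr1, whose shared window holds 3 CCAAT and 2 GGGCGG, differed: Tcf19, a cell cycle-linked factor, had a fold change of 0.42 ± 0.24 and a control-line difference of 0.35, and Cchcr1, a coiled-coil protein, had 1.33 ± 0.40 and -1.22 ± 0.11, adjusted p = 3.1e-14. The windows of Rps28 and Ndufa7, a complex I subunit, overlap in part only, and 1 TATAAA lies in the stretch they share. Rps28 and Ndufa7 had fold changes of 0.83 ± 0.39 and 0.46 ± 0.30 and control-line differences of -1.20 and -0.97. The other divergent pairs lay above the controls in both genes. Csnk2b and Gpank1 had fold changes of 0.36 and 0.63 and control-line differences of -0.78 and -0.60. Gm11110 and Tnfsf9 had 3.57 and 3.76, and -2.25 and -3.71, with 2 reads each in WT_5257. Reads of the table's overlapping starts, as in Psmb9 and Tap1, cannot be told apart by strand, because whether counting used the strand is not given in the sources used here. Of the 176 members, 94 overlap an annotated gene on the opposite strand.

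Neighbouring paralogs were not alike in every line. Of the serine protease genes Prss22, Prss27 and Prss32, the first read 63.1, 48.7, 5.12 and 97.2 CPM against 9.66 and 13.6 CPM, low in KO_2768 as was Prss27, while Prss32 did not pass 1 CPM. Msln and Mslnl were both lowest in KO_2768 among the deficient lines. Tnf and Lta, 2 cytokines side by side, were at 2.99, 1.83, 11.6 and 9.04 CPM and at 0.801, 0.731, 0.698 and 0.046 CPM in the deficient lines, and KO_4258 was high for Tnf and low for Lta. Hsp90ab1 and Slc29a1, neighbours, lay on opposite sides of the controls, as did Tcp1, a chaperonin subunit (0.51 ± 0.25), and Acat2 (-1.33 ± 0.39).

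The 6 members without enough reads in the lines for a fold change were Gm9992, Dcpp1, Dcpp2, Tspo2, Vav1 and Lama1. Dcpp1, Dcpp2 and Lama1, a laminin chain, were read almost only in WT_8905, with 45, 67 and 69 reads there and 1, 0 and 2 in the deficient lines, and none in WT_5257. Dcpp1 and Dcpp2 overlap on a strand and share sequence, so their split is uncertain. Vav1, a guanine nucleotide exchange factor of blood cells, had 20 reads in KO_1922, 8 in KO_1925, 1 in KO_2768 and none in the other 3 lines. Tspo2 read under 0.2 CPM in each line but WT_8905, at 1.34 CPM, and Gm9992 read under 0.5 CPM with none in the controls.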

How the data were processed

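RNA-Seq reads of 11 libraries from 6 tumor-derived lines were processed by the authors, who aligned them to mm10 with STAR and obtained read counts per gene with HTSeq. The authors deposited whole-number counts, a normalized signal in which size factors scale each library, and FPKM, which also corrects for gene length, for genes past their own test of genotype only. The columns of that test (log2 fold changes and p-values) were not used. Per the labels, Trimmomatic, edgeR and limma were also part of the processing.

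Library totals were recovered from counts, gene length and FPKM. Counts were filtered with filterByExpr, scaled by TMM on the filtered genes (factors 0.969 to 1.05) and fitted in edgeR 4.0.16 (quasi-likelihood, R 4.3.3). Genotypes were compared over counts summed by line. Lines were compared over libraries, with p-values adjusted over the 4377 listed genes that passed the filter. Because only listed genes were available, scaling factors rest on genes that differ by genotype. DESeq2 1.42.0, other scalings, no filter, a replicate block and leaving out each line or library were tried. The scripts were tested on simulated counts.

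The members and the gene lists were chosen with earlier results of these data known. Named genes were the 12 higher and 12 lower members with the largest fold change among those separated between genotypes, the 8 of highest mean FPKM, the 5 called members of largest difference in each contrast of lines, members of the lists, neighbouring paralogs, and the ends of the longest stretch. Divergent pairs and genes named beside them, such as C3, Hmga1, Rab31 and Ltbp1 in the control-line contrast, were chosen after their values were seen. Duplicate libraries of a line differed beyond sampling noise (chi-square per degree of freedom 9.27 in KO_4258 and 2.12 to 3.1 in the other duplicated lines). Intervals and floors cover counting error only, and a floor of 3 counts stands at 0.114 to 0.204 CPM per library. Symbols turned into dates (6 genes) were restored from their gene identifiers. Coordinates are those of the deposited table (GRCm38), and promoter sequences are from RefSeq. The fold of each functional list is a description, with no set test.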

Additional observations from a re-analysis of the deposited data

Results flagged for a closer look

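Among 32 members with the largest differences or the highest levels, 4 had a deficient line far from the other 3 on the log2 scale (gap over range above Dixon's critical value for 4 samples). Chance alone flags about 1 group in 20. Msln read 150.0 CPM in KO_2768 and 492 to 580.0 CPM in the other deficient lines. Rps18 read 1120 CPM in KO_4258 and 365 to 422 CPM in the others. Satb1 had no read in KO_4258 (0 CPM) and stood at 2.87 to 4.61 CPM in the others. Tnfrsf21 read 5.54 CPM in KO_4258 and 21.6 to 26.9 CPM in the others. Line KO_4258 stood apart in 3 of these 4 genes.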

How the results depend on the processing

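Results on the members depended most on the choice of control line. With WT_8905 left out, 139 of 172 measured members were separated upward (46.9% of listed genes) and the median fold change was 1.28 (0.55 over listed genes). With WT_5257 left out 62 of 176 were separated upward, near the share of listed genes (34.3%). In that setting 35 members lay below the controls and the median was 0.40 (0.33 over listed genes). Leaving out each line in turn, with 165 to 176 members measured, gave 141 to 152 members above (57.3% to 59.4% of listed genes) and 20 to 35 below. In these settings 60 to 139 members were separated upward (31.9% to 46.9% of listed genes). From 17 to 26 were separated downward (39.4% to 40.6% of listed genes), and medians ran from 0.40 to 1.28. With every library a sample, 43 of 159 measured members were separated upward (23.9% of listed genes), also with the replicate block. Replicate numbers did not pair the samples: deviations of same-numbered libraries correlated between -0.0448 and 0.0422 over 10 pairs of lines, and the block left the calls between control lines at 56 lower and 2 higher. DESeq2 size factors, alone or in DESeq2 by library, put the median control-line difference at -0.74. With DESeq2 size factors alone the calls between control lines fell to 42 lower and 2 higher. With the authors' size factors they were 48 lower and 2 higher. The shares of listed genes called under these scalings were not computed. Without the minimum log2 difference, calls rose to 128 lower and 6 higher between control lines (36.2% and 24.9% of listed genes), 47 and 20 for KO_1925 (22.7% and 21.4%), 61 and 54 for KO_2768 (32.0% and 31.9%), and 63 and 74 for KO_4258 (40.1% and 34.2%). Leaving out each library gave 52 to 63 members lower between control lines and 2 higher, a median of -0.94 to -0.82 (-0.82 without the second WT_8905 library), 4 to 8 lower and 2 to 3 higher for KO_1925 (4 lower without the second library of either KO_1922 or KO_1925), 12 to 15 lower and 17 to 19 higher for KO_2768, and 25 to 29 lower and 20 to 22 higher for KO_4258. The fold change of Hsp90ab1 reversed to -0.016 without WT_5257 and was 1.16 without WT_8905. Of 527 alternative values of named genes, 487 moved by less than the spread between the deficient lines. The authors' size factors were added after the data were seen. Only listed genes were measured, with 2 control lines and 1 library of KO_2768, so neither unlisted genes of the chromosome nor the spread between control tumors beyond 2 lines were analysed here. The share of windows with a median above 0 stayed within 1.5 times under windows of 5 Mb and DESeq2 size factors.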
